A study of Mus musculus with 48 samples.

Results

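The response of macrophages to interferon-γ (IFN-γ) was measured in cells that were also exposed to LE, a synthetic peptide copied from the HLA-DR β chain encoded by DRB1*03:01, an allele tied to systemic lupus erythematosus. The cells were RAW264.7, an established mouse macrophage line made with a transforming virus, so the values describe 1 cultured line and not macrophages of a tissue. The comparison was between the LE+IFNy group (LE at 100 µg/ml and IFN-γ at 5 ng/ml) and the LE group (LE at 100 µg/ml alone), both harvested after 72 h, and its members were the letter-labelled replicates 1 to 3 of each group, 6 of the 48 libraries of the series. The same 72 h design was used for PBS and IFNy (no peptide), for SE and SE+IFNy (a peptide from an allele tied to rheumatoid arthritis) and for PE and PE+IFNy (a peptide from alleles tied to protection), again with 3 letter-labelled libraries per group and 24 in all. The study describes its replicates as biological, but no label ties a library to a separate culture, so p-values measure the spread between these libraries.

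IFN-γ is a dimer made mainly by T cells and natural killer cells. It binds the IFNGR1 and IFNGR2 receptor chains, whose kinases JAK1 and JAK2 phosphorylate transcription factors of the STAT family. Their dimers bind a palindromic DNA element called GAS (gamma-activated site) in target promoters, and one of the earliest targets, IRF1, then binds a separate element. In macrophages this pathway is best known for switching on guanylate-binding proteins, MHC class II, nitric oxide synthase and CXCR3 chemokines. At 72 h, with the medium renewed at 48 h, the RNA shows a late state and not the initial burst of transcription.

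Read totals were 18.7 M to 22.8 M (M for mega) in the LE libraries and 22.9 M to 26.9 M in the LE+IFNy libraries, and levels are given as CPM, counts scaled to 1 M reads of the library. The labelled cell type was checked with 7 macrophage markers (Ptprc, Spi1, Csf1r, Cd68, Lyz2, Itgam and Adgre1). All 7 were counted in every group, with a summed level of 9360 to 10200 CPM in LE and 7860 to 8690 CPM in LE+IFNy. Cd3e, Cd8a and Trbc2 of T cells, Col1a2 and Col3a1 of fibroblasts and Epcam, Krt8 and Krt18 of epithelium were at 0 counts in all 6 libraries. The 7 T cell markers summed to 12.3 to 13.3 CPM in LE and 17.1 to 20.4 CPM in LE+IFNy, the 5 fibroblast markers to 0.268 to 0.877 and 1.11 to 1.18 CPM, the 4 endothelial markers to 1.03 to 1.4 and 1.92 to 2.41 CPM, and the 4 epithelial markers to at most 0.0438 CPM. In LE, Cd3d and Cd3g were also at 0 counts, so the T cell sum there came from Cd4 and Lck. Of the B cell markers, Ms4a1 and Pax5 were at 0 counts, while Ighm, the immunoglobulin μ chain, was counted at 31.9 to 34.2 CPM in LE and at 215 to 242 CPM in LE+IFNy, and at 166 to 262 CPM in IFNy against 29 to 38.9 CPM in PBS.

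The IFN-γ labels were checked with 23 genes of the guanylate-binding protein and immunity-related GTPase families, averaged as log2(CPM + 1) in each library. The peptide labels were not checked by these genes. The 3 LE libraries had values of 1.19 to 1.27 and the 3 LE+IFNy libraries 4.84 to 4.94. Over the 24 letter-labelled libraries, the range was 4.21 to 4.94 with IFN-γ and 1.09 to 1.32 without it, so all 24 went with their IFN-γ labels. The HLA-labelled libraries (replicates 4 to 6) did not: those labelled LE had values of 5.59 to 5.72, above the 5.06 to 5.14 of those labelled LE+IFNy. Those labelled PE were also at a high level (5.64 to 5.80), and those labelled IFNy (1.57 to 1.59) and SE+IFNy (1.60 to 1.63) at a low one. Whether sample labels or column names of these groups are exchanged was not tested, and columns were matched to samples by name only. The letter-labelled libraries were taken by their labels, but with earlier results of these data known, and the HLA-labelled libraries enter only as an alternative.

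**Figure D1:**
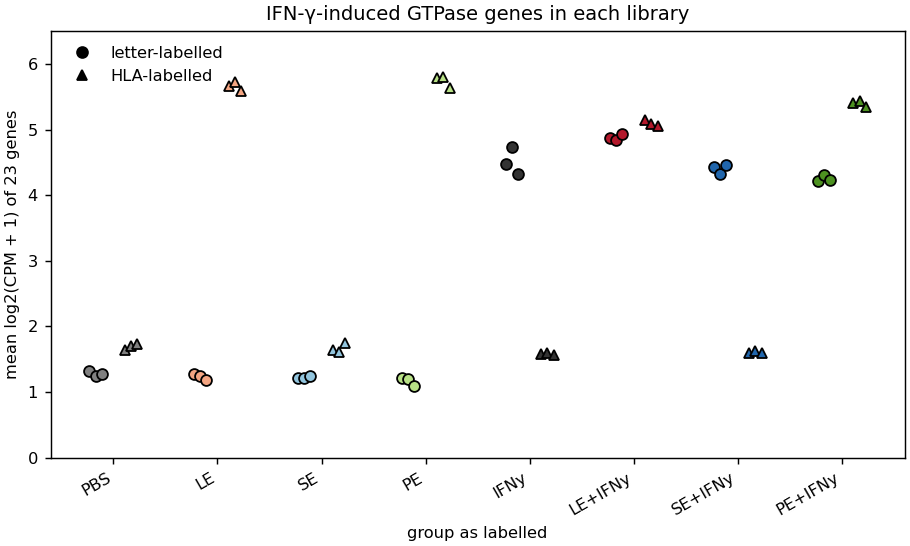
Mean log2(CPM + 1) of 23 IFN-γ-induced GTPase genes (vertical axis) in each of the 48 libraries by labelled group (horizontal axis), with circles for letter-labelled and triangles for HLA-labelled libraries. The letter-labelled LE circles lie at 1.19 to 1.27 and the LE+IFNy circles at 4.84 to 4.94, while the HLA-labelled LE triangles lie at 5.59 to 5.72.

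IFN-γ changed a large part of the transcriptome of LE-exposed cells. Of 13096 genes tested, 4547 (34.7%) were called, meaning a Benjamini-Hochberg adjusted p under 0.05 and a fold change over 1.5 in edgeR's quasi-likelihood test. The calls were 2476 rises (18.9% of genes tested) and 2071 falls (15.8%). These are the shares to set beside the rises and falls of each gene list below. More than 8-fold changes were rarer and mostly upward, with 227 rises and 38 falls. The median log2 fold change over all genes was -0.0039, and the 3 LE+IFNy libraries did not overlap the 3 LE libraries for 9304 genes (71%), so a lack of overlap alone says little about any single gene here. Leaving out 1 replicate number from all groups gave 4130 to 4488 calls.

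The receptor and its signalling chain were already counted in the LE libraries. Ifngr1, the ligand-binding receptor chain, had 33.4, 37.2 and 40.6 CPM in LE and 24.7, 27.2 and 24.1 CPM in LE+IFNy. Ifngr2, the signalling chain, had 135 to 144 CPM in LE and 102 to 106 CPM in LE+IFNy. Both were lower in all 3 LE+IFNy libraries, with log2 fold changes of -0.57 (SE 0.0921, adjusted p = 6.96e-06) and -0.44 (SE 0.0692, adjusted p = 4.64e-06), but neither reached the fold threshold. Jak1 had 149, 153 and 128 CPM in LE and 375, 326 and 366 CPM in LE+IFNy, without overlap, a rise of 1.29 on the log2 scale (SE 0.0934, adjusted p = 1.69e-11). The kinase Jak2 rose by 0.76.

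The transcription factors downstream rose too. Irf1, whose protein carries the signal to the second wave of targets, went from 23.3, 23.3 and 24.6 CPM to 117, 115 and 129 CPM (log2 fold change 2.32, SE 0.0957, adjusted p = 4.16e-16). Irf8, a factor of macrophage identity, rose by 1.10, and Batf2, a partner of IRF1, by 3.08. In the list of 13 receptor and JAK-STAT genes, 8 rose and 0 fell, with a median log2 fold change of 0.80. The feedback inhibitors were counted at low levels: Socs1, which blocks the JAK kinases, was at 0.98 to 1.45 CPM in LE and 3.71 to 4.03 CPM in LE+IFNy (1.60), and Socs3 at 7.23 to 10.4 and 17.5 to 19.1 CPM (1.04). Ptpn2, a phosphatase of JAK kinases, rose by 1.15. Of 10 feedback genes tested, 5 rose and 1 fell (50% and 10%, against 18.9% and 15.8% of all genes), and 3 rose and 0 fell without replicate 3.

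The bases before the start site are shown for 6 called genes, namely the early target Irf1, the feedback gene Socs1 and GTPase and Fc receptor targets. Only windows with a match to a motif of STAT or IRF factors could be shown. A match in every line was thus fixed by the choice and says nothing about the other called genes. Irf1 has 2 RefSeq windows, of which the first is shown. Each line gives 130 bases up to the base before the RefSeq start of the gene (build GRCm38.p6), 5′ to 3′ on the gene's strand, with motif matches in capitals. The searched motifs were GAS, written TTCNNNGAA, which reads the same on both strands, and the IRF motif GAAANNGAAA or its reverse complement TTTCNNTTTC. The windows were chr11:53769884-53770013 (plus strand, Irf1), chr3:142620533-142620662 (plus, Gbp2), chr3:142496804-142496933 (plus, Gbp5), chr11:58199426-58199555 (plus, Igtp), chr3:96293970-96294099 (minus, Fcgr1) and chr16:10785537-10785666 (minus, Socs1).
Irf1: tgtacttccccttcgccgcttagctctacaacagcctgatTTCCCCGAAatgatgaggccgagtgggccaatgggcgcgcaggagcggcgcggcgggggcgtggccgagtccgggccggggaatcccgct
Gbp2: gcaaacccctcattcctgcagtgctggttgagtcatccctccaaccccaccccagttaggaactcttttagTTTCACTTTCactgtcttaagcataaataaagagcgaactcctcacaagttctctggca
Gbp5: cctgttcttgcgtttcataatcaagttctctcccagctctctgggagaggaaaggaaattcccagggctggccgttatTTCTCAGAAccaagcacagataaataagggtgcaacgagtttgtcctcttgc
Igtp: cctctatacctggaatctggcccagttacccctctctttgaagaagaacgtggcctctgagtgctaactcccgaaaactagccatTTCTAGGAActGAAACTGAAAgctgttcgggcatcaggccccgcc
Fcgr1: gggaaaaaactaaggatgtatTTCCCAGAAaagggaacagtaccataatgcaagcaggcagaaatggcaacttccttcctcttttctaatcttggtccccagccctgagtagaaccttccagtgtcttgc
Socs1: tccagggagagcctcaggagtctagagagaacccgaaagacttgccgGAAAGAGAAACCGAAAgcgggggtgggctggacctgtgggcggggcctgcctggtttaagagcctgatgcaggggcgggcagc

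Counted back from the start site, the GAS match of Irf1 began at base -90, that of Gbp5 at -52, that of Igtp at -45 and that of Fcgr1 at -109. The IRF match of Gbp2 began at -59 and that of Igtp at -34, 2 bases after the end of its GAS match. The Socs1 window held 2 overlapping IRF matches, at -83 and -77. Among all 32851 RefSeq starts, 3.53% held the GAS motif and 1.35% the IRF motif in the 130 bases before the start. A RefSeq window was matched by symbol for 9408 of the 13096 genes tested, under the 80% needed for shares by direction of change.

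The GTPases of cell-autonomous defence, which attack the membranes around intracellular microbes, rose as whole families. All 11 guanylate-binding proteins and all 12 immunity-related GTPases tested rose. Gbp2 (chromosome 3, 142620602 to 142638008, GRCm38) had 0.658, 0.466 and 0.429 CPM in LE and 395, 381 and 439 CPM in LE+IFNy, a log2 fold change of 9.55 (SE 0.144, adjusted p = 9.19e-25). Gbp2b went from 0.268 to 0.614 CPM to 377 to 440 CPM (9.66) and Gbp4 from 0.0466 to 0.268 CPM to 245 to 286 CPM (10.76). Gbp5, which also takes part in inflammasome assembly, was counted in only 1 LE library (0.219 CPM) and at 22.3 to 26.9 CPM in LE+IFNy.

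Within the immunity-related GTPases the starting level differed between members. Iigp1 held at most 2 counts in each LE library and 69.1 to 77 CPM in LE+IFNy, a ratio of 1550 with a 95% counting interval of 531 to 7540. Tgtp2 gave a ratio of 802 (274 to 3890). Igtp and Ifi47, in contrast, were counted in cells not given IFN-γ: Igtp at 10.8, 9.24 and 9.38 CPM in LE and 94.6, 87.2 and 96.8 CPM in LE+IFNy (log2 fold change 3.22), and Ifi47 at 5.17 to 6.11 and 27.4 to 28.7 CPM (2.33). The median log2 fold change was 7.24 for the guanylate-binding proteins and 5.93 for the immunity-related GTPases as fitted. With genes at 0 counts in LE set to their lower bound, the medians were 6.72 and 3.59.

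MHC class II, which presents peptides to CD4+ T cells, rose as a whole list, most of it from near 0. All 10 class II genes tested rose, with a median log2 fold change of 7.66 as fitted and 6.95 at the bound. Ciita, the transactivator that class II transcription depends on, had 3 counts in 1 LE library and 0 in the others, and 17.8, 16.3 and 20.3 CPM in LE+IFNy, a ratio of 378 (129 to 1830). H2-Aa, the α chain of I-A (chromosome 17, 34282744 to 34287823), had 0.0877, 0.0933 and 0.59 CPM in LE and 601, 651 and 708 CPM in LE+IFNy, a log2 fold change of 11.36 (SE 0.233, adjusted p = 2.38e-22). H2-Eb1 reached 730 to 863 CPM (10.47) and H2-Ab1 405 to 485 CPM (9.37). H2-DMb1, part of the peptide exchange factor, gave a ratio of 1470 (407 to 12100). Cd74, the invariant chain, was the exception in level, with 1290, 1490 and 1530 CPM in LE and 3840, 3980 and 4070 CPM in LE+IFNy (1.43), and H2-DMa was counted at 5.57 to 7.08 CPM in LE (2.88); both were singled out after their values were seen.

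Class I presentation started from a higher level and rose less. Of 21 class I and immunoproteasome genes tested, 19 rose and 0 fell, with a median log2 fold change of 1.52. Psmb9, an immunoproteasome subunit, went from 22.2 to 24.4 CPM to 149 to 177 CPM (2.78), and Tap1, a subunit of the transporter that loads class I with peptides, from 49.2 to 51.1 CPM to 324 to 342 CPM (2.70). The non-classical class I gene H2-Q4 rose by 2.50. Genes of this cluster resemble each other closely, so unique alignment can lower or shift their counts.

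Among the chemokines, 14 of 15 genes tested rose and 0 fell, with a median log2 fold change of 3.66 as fitted and 3.51 at the bound. Cxcl9 (chromosome 5, 92321347 to 92328079), a CXCR3 ligand that draws activated T cells, had 0 counts in all 3 LE libraries and 91.8, 91.6 and 108 CPM in LE+IFNy, at least 673-fold higher against a floor of 3 counts per library. The other CXCR3 ligands rose as well. Cxcl10 went from 0.513 to 0.877 CPM to 11.9, 11.5 and 18.8 CPM (log2 fold change 4.37), and Cxcl11, counted in 1 LE library, reached 11.6 to 13.2 CPM, a ratio of 380 (105 to 3140). Ccl5, which attracts T cells and monocytes, rose by 3.66 to 30.4 to 32.2 CPM, and Ccl7, a monocyte attractant, by 4.39 to 21.9 to 22.5 CPM.

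Receptors for chemoattractants changed in both directions, with 5 of 11 higher and 3 lower (45.5% and 27.3%, against 18.9% and 15.8% of all genes). Cx3cr1, the fractalkine receptor, had 17, 36.5 and 34.4 CPM in LE and 1.03, 0.965 and 1.4 CPM in LE+IFNy, and fell by 4.73 on the log2 scale (SE 0.36, adjusted p = 3.81e-11). Gpr183, a receptor for oxysterols, fell by 2.13, and S1pr1, a receptor for sphingosine-1-phosphate, by 1.71. Cxcr4, the receptor for CXCL12, went the other way, from 7.32, 8.07 and 6.81 CPM in LE to 44.8, 51.9 and 56.9 CPM in LE+IFNy (log2 fold change 2.76, SE 0.131, adjusted p = 6.29e-15).

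Some enzymes of macrophage killing rose. Nos2, the inducible nitric oxide synthase, had 17, 36.3 and 28.3 CPM in LE and 579, 513 and 594 CPM in LE+IFNy (log2 fold change 4.34, SE 0.387, adjusted p = 6.14e-10). Acod1, which makes itaconate, went from 26.4 to 40.5 CPM to 424 to 512 CPM (3.69). Ass1, which regenerates arginine for nitric oxide synthesis, rose by 2.59, and Cybb, the catalytic subunit of the phagocyte oxidase, by 2.28. Of the 14 genes of this list, 6 rose and 2 fell.

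Ptgs2, the inducible cyclooxygenase, had 2.28, 4.71 and 3.32 CPM in LE and 272, 210 and 273 CPM in LE+IFNy (log2 fold change 6.17, SE 0.291, adjusted p = 5.63e-15). Serpina3g and Serpina3f, members of a serine protease inhibitor cluster whose copies resemble each other, were among the 10 largest rises. Serpina3g had 0 counts in LE and 61.7 to 80 CPM in LE+IFNy, at least 484-fold higher. Ly6a, a surface protein used as a marker of interferon exposure, went from 0.107 to 0.263 CPM to 224, 224 and 252 CPM (10.31).

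Cytokine genes rose in 12 of 14 cases and fell in 0. Tnf had 33.5, 46.7 and 42.8 CPM in LE and 126, 114 and 135 CPM in LE+IFNy (log2 fold change 1.58). Il1rn, the interleukin-1 receptor antagonist, was counted at 166 to 179 CPM in LE and 474 to 533 CPM in LE+IFNy (1.5), far above Il1b, which had 0.0933 to 0.526 CPM in LE and 0.799 to 1.15 CPM in LE+IFNy (1.71). Il18bp, which neutralises interleukin-18, rose by 5.06 and Csf1, the growth factor of macrophages, by 2.43. The call of Il1b was lost without replicate 2 (1.13) and without replicate 3 (1.61).

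Of the NF-κB and TNF receptor family genes, 4 of 21 were higher and 4 lower (19% each, near the 18.9% and 15.8% of all genes), with a median log2 fold change of 0.04. Nfkbiz, an atypical inhibitor that works as a co-activator, rose by 3.33 and Cd40 by 1.91. Nfkbie, an inhibitor of NF-κB, fell by 1.90. Tnfaip3, which encodes the deubiquitinase A20, had 15.4, 21.6 and 16.4 CPM in LE and 27, 25.1 and 29.8 CPM in LE+IFNy (0.59). Tnfrsf9 had 12, 26.7 and 22.9 CPM in LE and 14, 11 and 11.1 CPM in LE+IFNy, with overlapping groups and a log2 fold change of -0.80 (SE 0.286, adjusted p = 0.0176). Its call was lost without replicate 2 (-0.50) and without replicate 3 (-0.64), and that of Tnfaip3 without replicate 1 (0.50) and without replicate 3 (0.49). Without replicate 2, 6 genes of the list rose, and without replicate 3, 2 fell.

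Of the costimulatory and checkpoint molecules, 6 of 12 rose and 3 fell. Cd86, a ligand of CD28, went from 3.81 to 4.76 CPM to 46.4 to 53.4 CPM (3.51). Cd274, the ligand of PD-1, went from 22.2, 20.2 and 17.7 CPM to 223, 209 and 245 CPM (3.47). Cd83 rose by 1.82. Other lists were the Schlafen family (4 of 8 higher, 1 lower), the Toll-like receptors (2 of 15 higher, 3 lower), LXR targets (4 of 13 higher, 3 lower), cell cycle inhibitors and p53 targets (8 of 19 higher, 2 lower) and lysosomal proteases (5 of 20 higher, 3 lower), beside 18.9% higher and 15.8% lower over all genes.

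Genes best known as type I interferon targets rose in 18 of 28 cases and fell in 4, with a median log2 fold change of 0.86. Zbp1, a sensor of Z-form nucleic acid, went from 2.37 to 2.71 CPM to 77.1 to 88.5 CPM (4.99), and Rsad2, the antiviral enzyme viperin, from 2.84 to 4.34 CPM to 56.9 to 69.9 CPM (4.00). Irf7, the amplifier of type I interferon, rose by 1.62 and Ifi44 by 0.70. Of the cell death and inflammasome genes, 8 of 21 rose and 1 fell. Casp4 rose by 1.60, Casp1 by 1.48, Fas by 1.37 and Mlkl, the executor of necroptosis, by 1.13.

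Complement and Fc receptor genes were a further group with large rises, 13 of 18 higher and 1 lower, with a median log2 fold change of 1.92. The 3 chains of C1q were almost absent from LE. C1qb was counted at 0 to 0.187 CPM in LE and at 36.4, 38.5 and 46.5 CPM in LE+IFNy, and C1qc at 0 to 0.214 CPM and 39 to 47.9 CPM. C3, the central complement component, had 18.2, 19.4 and 21 CPM in LE and 326, 313 and 339 CPM in LE+IFNy (4.04, SE 0.109, adjusted p = 6.26e-20). Fcgr1, the high-affinity IgG receptor, rose by 1.06 from an LE level of 141 to 150 CPM. Dnase1l3, a secreted nuclease for chromatin in microparticles, had 3 counts in 1 LE library and 5.06 to 5.98 CPM in LE+IFNy, a ratio of 113 (38.4 to 550).

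Of the genes of macrophage identity, 5 of 13 were higher and 2 lower (1 lower without replicate 1 or without replicate 3), that is 38.5% and 15.4% against 18.9% and 15.8% of all genes, with a median log2 fold change of -0.36. Cd36, a scavenger receptor for oxidised lipoproteins, had 94.9, 92.3 and 81.4 CPM in LE and 1240, 1370 and 1340 CPM in LE+IFNy (3.85, SE 0.152, adjusted p = 1.77e-16). Adgre1, which encodes F4/80, rose by 1.93 and Siglec1 by 1.74. Trem2, a lipid receptor, fell by 1.52, from 461 to 500 CPM to 161 to 176 CPM. Of the endosomal receptors, Tlr9 rose by 3.13, while the surface receptor Tlr2 and the adaptor Myd88 fell by 1.00 and 0.82.

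Genes of the osteoclast, a bone-resorbing cell that RAW264.7 can form, fell in 7 of 17 cases and rose in 4. That is 41.2% lower and 23.5% higher, against 15.8% and 18.9% of all genes, so only the falls stood well above that share. Ctsk, the collagen-degrading cathepsin K, had 118, 108 and 107 CPM in LE and 16.2, 14.4 and 14.2 CPM in LE+IFNy, a fall of 2.92 on the log2 scale (SE 0.0972, adjusted p = 5.58e-18). Acp5, the tartrate-resistant phosphatase, fell by 2.05 and Mmp9, a gelatinase, by 1.89. Of the lysosomal proteases, Ctsc and Ctse rose by 1.97 and 1.99 and Ctsf fell by 2.07, while the list as a whole had 25% of its genes higher and 15% lower, near the shares of all genes.

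Many lipid synthesis genes fell. Of 23 cholesterol synthesis and uptake genes tested, 15 fell and 0 rose, with a median log2 fold change of -0.83, and of 14 fatty acid synthesis genes 8 fell and 1 rose (median -0.60). Fdps, an isoprenoid synthase, had 27.8, 28.5 and 29.6 CPM in LE and 6.89, 9.62 and 7.47 CPM in LE+IFNy, without overlap, a fall of 1.87 (SE 0.155, adjusted p = 1.76e-10). Mvd, a decarboxylase of the mevalonate pathway, fell by 1.79, from 138 to 150 CPM to 41.9 to 42.9 CPM. The desaturase Scd2 fell by 1.83 and Fasn, the fatty acid synthase, by 1.78, from 491 to 573 CPM to 146 to 175 CPM.

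Many energy metabolism genes fell as well. Of 23 glycolysis genes 12 fell and 2 rose (median -0.59), and of 54 nuclear genes of the respiratory chain 24 fell and 0 rose (median -0.51). Ldha, lactate dehydrogenase A, had 1900, 2680 and 2670 CPM in LE and 1080, 1080 and 1040 CPM in LE+IFNy (-1.21). The first LE library was the lowest for Ldha, for Tpi1 (930 against 1430 and 1390 CPM) and for Cx3cr1, and leaving out 1 replicate gave 9 to 13 glycolysis genes that fell. Hif1a, which drives glycolysis genes in low oxygen, rose by 1.51. Of 7 mitochondrially encoded genes tested 4 fell and 1 rose, and mt-Cytb had 3830 to 4090 CPM in LE and 1230 to 1420 CPM in LE+IFNy (-1.62). Of 42 cytosolic ribosomal protein genes 1 was called, Rpl38, at -0.61, and not without replicate 3 (-0.55). The list still lay mostly below 0, with a median of -0.38 and quartiles of -0.44 and -0.29, under the fold threshold.

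Endoplasmic reticulum (ER) chaperones fell in 9 of 22 cases and rose in 3 (median -0.46). P4hb, a protein disulfide isomerase, had 3820, 4490 and 4340 CPM in LE and 1940, 1960 and 1710 CPM in LE+IFNy (-1.20), and Dnajc3, which restrains the kinase PERK, went from 478 to 547 CPM to 259 to 293 CPM (-0.88). The 3 that rose included Hspa5, which encodes the ER chaperone GRP78, from 6930, 6540 and 6400 CPM to 10500, 10600 and 9380 CPM (0.59, SE 0.0962, adjusted p = 9.44e-06; 0.54 and no longer called without replicate 2), and Ern1, the stress sensor IRE1α (1.23). Ddit3, which encodes the stress factor CHOP, had 406, 386 and 369 CPM in LE and 984, 1020 and 1000 CPM in LE+IFNy (1.35). Of 21 ATF4 and CHOP targets 8 rose and 1 fell, and of 20 NRF2 targets, genes of the antioxidant response, 8 rose and 1 fell. Slc7a11, the cystine importer, rose by 1.83 and Hmox1, haem oxygenase, by 1.40.

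Many proliferation genes rose. Of 46 mitosis genes tested 40 rose and 0 fell, with a median log2 fold change of 1.16. Prr11 had 11.6, 10.5 and 8.04 CPM in LE and 50.1, 49.9 and 64.4 CPM in LE+IFNy (2.42, SE 0.189, adjusted p = 6.49e-11). Bub1, a kinase of the spindle checkpoint, had 21.9, 19.3 and 15.7 CPM in LE and 73.1, 75.5 and 83.3 CPM in LE+IFNy (2.00). Knl1, its kinetochore scaffold, rose by 1.93. Of 39 DNA replication genes 16 rose and 1 fell (median 0.45), among them Pole, a subunit of DNA polymerase ε (1.39). In bulk RNA, more cells in mitosis and more of these transcripts per cell cannot be told apart. Of the 7 clustered histone genes that could be tested in poly(A) RNA, 4 fell and 0 rose, with Hist1h1c at -1.74.

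Growth factor response genes moved widely, with 12 of 23 higher and 5 lower. Myc had 2.46, 5.32 and 4.66 CPM in LE and 65, 60 and 67.8 CPM in LE+IFNy (3.94, SE 0.294, adjusted p = 2.76e-11). Dusp1, a phosphatase of MAP kinases, rose by 3.70, Egr1 by 2.26 and the stress gene Gadd45b by 2.45. Pim1, a kinase downstream of STAT factors, rose by 2.52. Fos went the other way and fell by 1.24. Without replicate 1, 9 genes of the list fell.

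**Figure D2:**
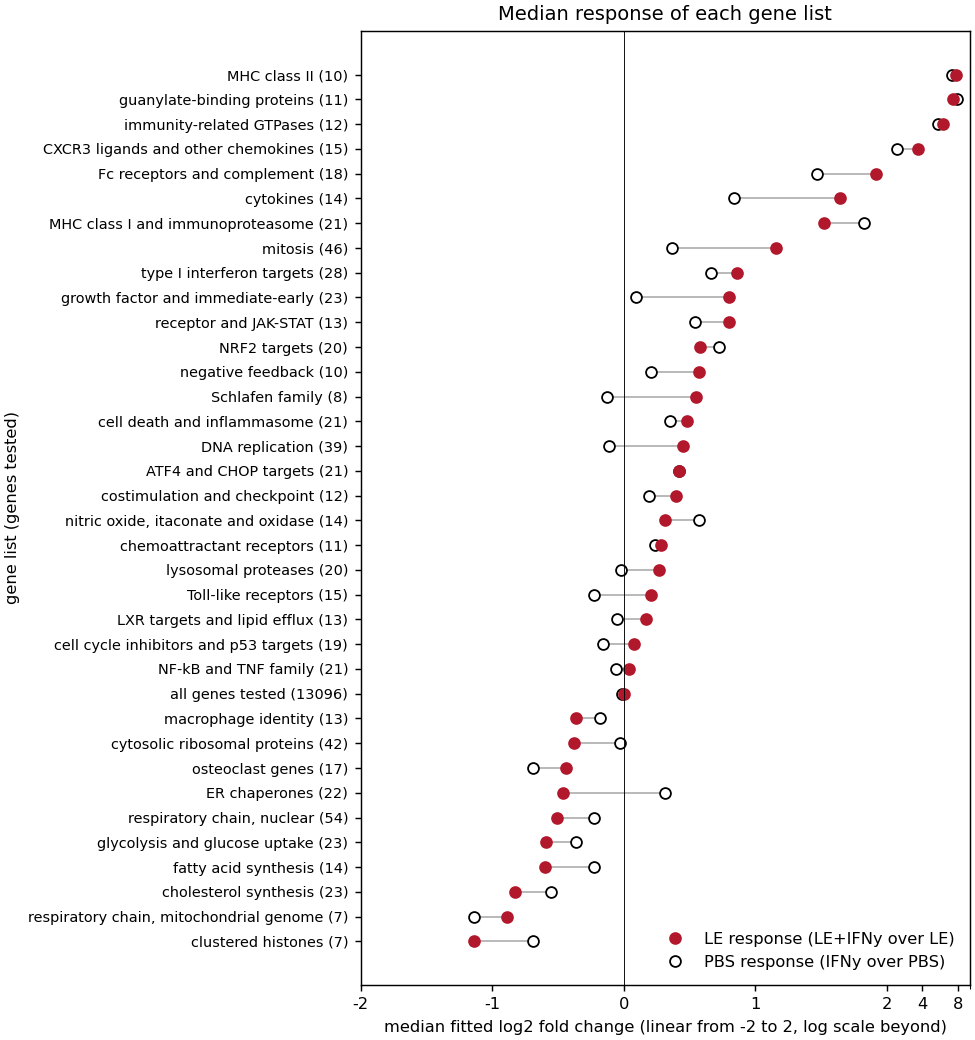
Median fitted log2 fold change (horizontal axis, linear from -2 to 2 and logarithmic beyond) of each gene list (vertical axis, with the number of genes tested) in the LE response (filled) and the PBS response (open). MHC class II and the GTPase families have the highest LE medians (7.66, 7.24 and 5.93), mitosis lies at 1.16 against 0.37 without LE, and ER chaperones at -0.46 against 0.31.

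A further question of the design was where the IFN-γ response with LE differed from the response without a peptide. Between LE and PBS, both without IFN-γ, 7 genes were called and 2824 had a raw p under 0.05. The PBS response, IFNy against PBS, had 2417 calls (18.5% of 13096; rises 10.1%, falls 8.37%), and 1660 genes were called in the same direction in both responses, which is 36.5% of the LE calls and 68.7% of the PBS calls. The difference between the responses, fitted as an interaction, was called for 2471 genes (18.9%), 1478 with a higher value with LE and 993 with a lower one. Of the 2846 genes called with LE and not without it, 1403 had a called difference. The other 1443 missed the adjusted p or only the fold threshold, so the lack of a call does not mean equal responses. Over all genes, 2566 differences had an adjusted p under 0.05 but missed the fold threshold. Among the genes called only with LE, Aldh9a1 (-0.51, adjusted p = 0.000287) and Cflar (0.52, adjusted p = 0.00285) had such a difference.

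For several classical targets no difference was called. Irf1 had log2 fold changes of 2.32 with LE and 2.83 without it, Tap1 of 2.70 and 2.78, H2-Eb1 of 10.47 and 10.69, and Nos2 of 4.34 and 3.81. In the class II list 0 of 10 genes had a higher response with LE and 2 a lower one, H2-Ab1 among them (9.37 against 10.83, adjusted p of the difference = 0.015), though not without replicate 1 (-1.61) or without replicate 3 (-1.0). Gbp2, in contrast, reached 395, 381 and 439 CPM with LE and 157, 135 and 151 CPM without it, a difference of 1.52 (adjusted p = 0.00148). Jak1 had 186, 157 and 164 CPM in PBS and 230, 198 and 200 CPM in IFNy, a difference of 0.96 (adjusted p = 5.03e-06).

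Several chemokine and cytokine genes had a larger response with LE than without a peptide. In the chemokine list 8 of 15 genes had a higher response with LE and 0 a lower one, against 11.3% and 7.58% of all genes. Cxcl10 rose by 4.37 with LE and 2.70 without it, a difference whose call was lost without replicate 3 (0.72), and Ccl5 by 3.66 and 2.43. Il1rn was counted at 189 to 237 CPM in PBS and 102 to 169 CPM in IFNy, so that its rise with LE made a difference of 2.04 (adjusted p = 2.13e-08). Tnf differed by 0.90 and Acod1 by 1.80, both higher with LE. The chemokine list was at the same level with SE, with a mean log2(CPM + 1) of 5.49 to 5.62 in LE+IFNy, 5.38 to 5.55 in SE+IFNy and 4.05 to 4.40 in IFNy, and 1 of its 15 genes was called different between the LE and SE responses. Csf1 went the other way, with 63.9, 60.7 and 65 CPM in IFNy against 53.1, 48.4 and 41.6 CPM in LE+IFNy (difference -0.88). Of the 14 cytokine genes and the 14 genes of the list with Acod1, 0 were called different between the LE and SE responses.

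Some genes rose with LE and were not called, or fell, without it. Cxcr4 had 12.2, 9.92 and 10.2 CPM in PBS and 10, 8.96 and 11.1 CPM in IFNy, and differed by 2.85 (adjusted p = 3.51e-10). Irf4, a lymphoid and myeloid transcription factor, fell without LE from 9.33, 6.16 and 8.63 to 5.41, 4.21 and 4.62 CPM and rose with it from 4.43, 5.97 and 6.76 to 23.2, 22.3 and 23.1 CPM, a difference of 2.72 (adjusted p = 1.87e-07). Egr1 differed by 2.49, Arrdc3, an arrestin-like protein, by 2.81, and the forkhead gene Foxn3 by 2.55. Tnfrsf9 fell in both, to 1.6, 2 and 3.07 CPM in IFNy and 14, 11 and 11.1 CPM in LE+IFNy, a difference of 2.34 (adjusted p = 0.000296). Few genes of these lists were called different between the LE and SE responses. The calls were 1 of 23 growth factor response genes, higher with LE, and 1 of 21 NF-κB and TNF receptor family genes, lower with LE.

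**Figure D3:**
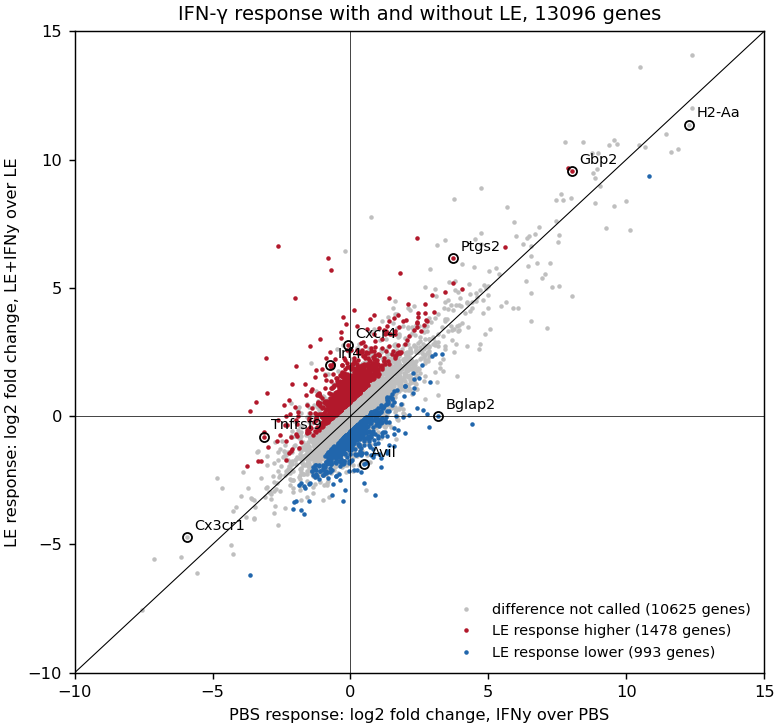
Log2 fold change of the LE response (vertical axis) against that of the PBS response (horizontal axis) for the 13096 genes tested, with the line of equal values. Red points are the 1478 genes whose difference was called higher with LE, blue points the 993 called lower, and the circled genes include Cxcr4 and Irf4 above the line and Avil and Bglap2 below it.

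Genes lower with LE included Avil, which encodes the actin-severing protein advillin, with 316, 316 and 324 CPM in LE and 98.2, 104 and 65.9 CPM in LE+IFNy, against 222, 241 and 194 CPM in PBS and 268, 410 and 231 CPM in IFNy (difference -2.35, adjusted p = 5.35e-08). Pi16 differed by -2.32 and Cdsn, a desmosome protein, by -2.07. Bglap2 had the lowest difference, -3.19, with 22.1 to 35.8 CPM in IFNy and 2.93 to 5.35 CPM in LE+IFNy. It belongs to the near-identical osteocalcin genes, so its counts may be split between copies.

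In cholesterol synthesis 10 of 23 genes had a lower response with LE and 0 a higher one, against 7.58% and 11.3% of all genes. Fdps had log2 fold changes of -1.87 with LE and -0.26 without it, a difference of -1.60 (adjusted p = 3.32e-06). The mean log2(CPM + 1) of the 23 genes was 4.60 to 4.63 in LE+IFNy and 5.11 to 5.23 in IFNy, without overlap, and 4.67 to 4.75 in SE+IFNy. Of the ER chaperones, 12 of 22 had a lower response with LE and 2 a higher one. Between the LE and SE responses, 1 of 23 cholesterol genes and 0 of 22 ER chaperones were called different. Dnajc3 had 560 to 636 CPM in IFNy and 259 to 293 CPM in LE+IFNy, a difference of -1.11 (adjusted p = 8.25e-09), while Hspa5 had 15300, 13100 and 14900 CPM in IFNy and 10500, 10600 and 9380 CPM in LE+IFNy and its difference, -0.40, was not called.

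**Figure D4:**
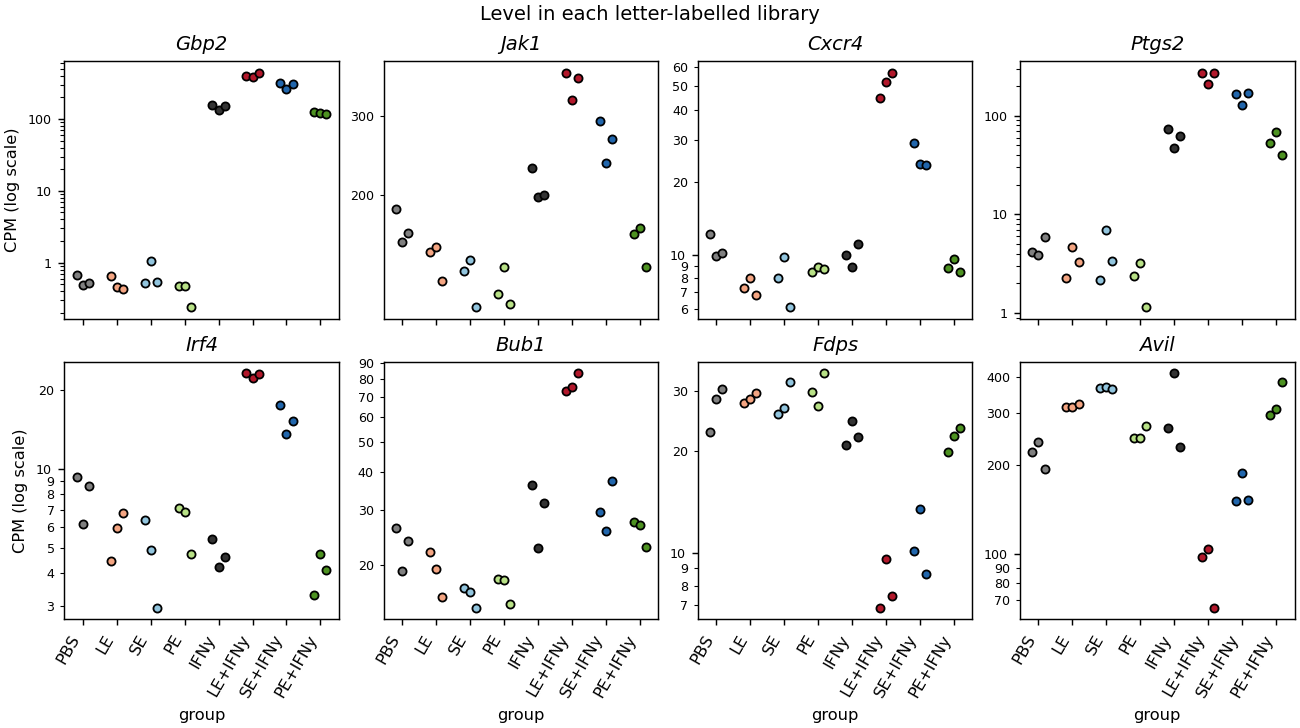
CPM on a log axis (vertical) of 8 genes in the letter-labelled libraries of each group (horizontal axis), 1 point per library. Cxcr4 lies at 44.8 to 56.9 CPM in LE+IFNy, above every other group, and Fdps at 6.89 to 9.62 CPM, against 27.8 to 29.6 CPM in LE.

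Many mitosis and replication genes had a larger response with LE than without a peptide. Of 46 mitosis genes 29 had a higher response with LE than without it and 0 a lower one, and of 39 replication genes 24 were higher and 0 lower. Over all genes the shares were 11.3% higher and 7.58% lower. The mean log2(CPM + 1) of the mitosis list was 4.79, 4.65 and 4.60 in LE and 5.76, 5.78 and 5.93 in LE+IFNy, against 5.02, 4.88 and 5.11 in PBS and 5.52, 5.07 and 5.51 in IFNy. That of the replication list was 5.33 to 5.48 in LE and 5.81 to 5.92 in LE+IFNy, and 5.10 to 5.59 in PBS and 5.03 to 5.17 in IFNy. With SE it was 5.11 to 5.47, and 5.41 to 5.54 in SE+IFNy. Between the LE and SE responses, 1 of 39 replication genes was called different. Against the PBS response, Bub1 differed by 1.60 and Pole by 1.14. Leaving out 1 replicate number gave 27 to 33 mitosis genes and 21 to 27 replication genes with a higher response.

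**Figure D5:**
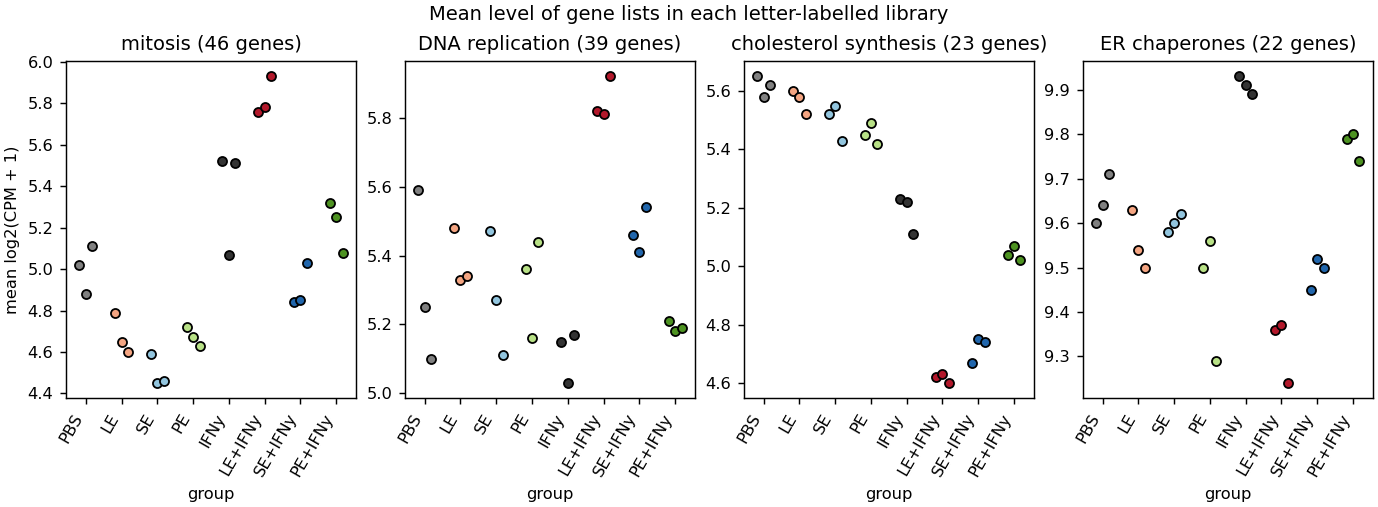
Mean log2(CPM + 1) of 4 gene lists (vertical axes, not starting at 0) in each letter-labelled library by group (horizontal axes), 1 point per library. Mitosis lies at 5.76 to 5.93 in LE+IFNy, above the other groups, and ER chaperones at 9.89 to 9.93 in IFNy and 9.24 to 9.37 in LE+IFNy.

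The peptides were compared at the same dose and time. The LE response differed from the PE response, PE+IFNy against PE, for 1725 genes (13.2%), 962 higher and 763 lower with LE, and for 1130 without replicate 3. Cxcr4 had 8.86, 9.64 and 8.48 CPM in PE+IFNy and differed by 2.77 and Pi16 by -2.46. Cxcl11 differed by 3.12, but not past the threshold without replicate 1 (2.53) or without replicate 2 (2.69). These comparisons share the LE and LE+IFNy libraries with the comparison against PBS. From the SE response, SE+IFNy against SE, which had calls at 26% of genes, it differed for 116 genes (0.886%), 87 higher and 29 lower. This count depended on every replicate, with 0 calls without replicate 1 or without replicate 2 (1781 and 1332 genes had a raw p under 0.05 in edgeR) and 12 without replicate 3. Of the 6 differences from SE named here, none kept its call without replicate 1 or without replicate 2, and those of Cxcr4 (1.09) and Hspa1b (-2.34) kept it without replicate 3.

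Of the 87 genes with a higher response with LE than with SE, 24 were among the 46 mitosis genes. Bub1 had 16.8, 16.3 and 14.5 CPM in SE and 29.7, 25.7 and 37.4 CPM in SE+IFNy, and differed by 1.07 (adjusted p = 0.0101). Prr11 differed by 1.41 (adjusted p = 0.01) and Aspm, a spindle pole protein, by 1.28. Cxcr4 had 29, 23.9 and 23.6 CPM in SE+IFNy, between PE+IFNy and LE+IFNy, and differed by 1.11 (adjusted p = 0.00426). Ranbp3l fell more with SE, to 1.11 to 1.21 CPM against 3.77 to 5.07 CPM with LE (difference 1.55). Hspa1b, an inducible HSP70, had 19.1, 15.9 and 12.1 CPM in SE+IFNy and 3.04, 3.79 and 2.01 CPM in LE+IFNy (difference -2.50). Irf4 had 17.6, 13.6 and 15.2 CPM in SE+IFNy, and its difference of 0.32 was not called, which does not show that the peptides act alike.

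The study names 16 genes for LE, SE or the readouts of its assays, and in the LE response 13 of them rose, 1 fell and 2 were not called. Some of them the study named from these libraries, so the count is not independent evidence. The 2 not called were Traf1 (14, 23 and 22.1 CPM in LE and 24.5, 26.3 and 24.8 CPM in LE+IFNy, log2 fold change 0.33) and Relb (0.38). Against the PBS response, 9 of the 16 had a higher response with LE and 0 a lower one. Between the LE and SE responses 0 of the 16 were called different, with median log2 fold changes of 1.60 and 1.31. The lack of a call does not show equal responses. Pim1 differed by 1.80, Tnfaip3 by 1.45, Traf1 by 0.97 and Irf7 by 0.72. Dnase1l3 had 5.06 to 5.98 CPM in LE+IFNy and 5.48 to 6.7 CPM in IFNy, and Ifi44 and Ddit3 had log2 fold changes of 0.70 and 1.35 with LE and 0.75 and 1.69 without it.

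The responses also went with transcript length and base composition to different degrees. Over 12706 genes with a known transcript, Spearman's rho of the log2 fold change with length was 0.228 and with GC content -0.300 in the LE response, and -0.040 and 0.014 in the PBS response, as a description over genes that share libraries. For LE minus SE the values were 0.181 and -0.419. With a smooth trend on both subtracted, 77% of the LE calls and 57.7% of the calls of LE minus PBS stayed over 1.5-fold in their direction. With the subtracted folds and the adjusted p from before the subtraction, the LE response had 1777 rises and 2209 falls. No gene was tested again after the subtraction. The median of the mitosis list went from 1.16 to 0.85 and that of cholesterol synthesis from -0.83 to -1.06, and 23 of the 24 mitosis genes called higher than with SE stayed over 1.5-fold. The part of length or composition in the results was not tested further.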

How the data were processed

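RNA was measured in RAW264.7 cells by stranded poly(A) RNA-seq with single-end reads of 100 bases. The values are counts that the authors deposited in 1 table of 49568 genes and 48 libraries, made with featureCounts from uniquely aligned reads on GRCm38.p5. The aligner is not given in the sources used here. Groups were taken from the labels, with letter-labelled and HLA-labelled libraries kept apart.

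The 24 letter-labelled libraries were fitted together in edgeR 4.0.16 (R 4.3.3) with TMM scaling, filterByExpr and the quasi-likelihood F test with Benjamini-Hochberg adjustment over 13096 genes. Responses and their differences were contrasts of group means. Totals were 16.5 M to 26.9 M counts, and counting intervals cover counting error only. Some items are not reported here. In a test on simulated data of the LE response, calls were checked at known fold changes. Same-group libraries differed beyond sampling noise. Of the gene names, 26 were date-like and were not named.

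Members and gene lists were chosen with earlier results of these data known. Named genes were the pathway genes, the genes of each list with the largest called changes, the 10 largest rises and falls, the largest differences between responses, and the genes named by the study. Transcript lengths came from GENCODE for GRCm38. Alternatives changed scaling, filter, replicates, tool (DESeq2 1.42.0), groups fitted and label series.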

Additional observations from a re-analysis of the deposited data

Results flagged for a closer look

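The LE response differed from the PBS response for 2471 genes, from the SE response for 116 and from the PE response for 1725, each tested as an interaction in edgeR. Differences are LE minus the other response on the log2 scale. A call against the PBS response does not imply one against the SE response.

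Against the PBS response, signalling and target genes with a higher response with LE were Jak1 (0.96), Gbp2 (1.52), Irf7 (0.72), Irf4 (2.72), Pim1 (1.80) and Cd274 (1.07). Chemokine, cytokine and effector genes were Cxcl10 (1.66), Ccl5 (1.23), Cxcr4 (2.85), Acod1 (1.80), Cybb (1.09), Il1rn (2.04), Tnf (0.90), C3 (1.00), Cd36 (1.42) and Ptgs2 (2.44). NF-κB and TNF receptor genes were Nfkbiz (1.73), Tnfaip3 (1.45), Tnfrsf9 (2.34) and Traf1 (0.97). Growth and proliferation genes were Bub1 (1.60), Pole (1.14), Gadd45b (2.17), Myc (2.21), Dusp1 (2.29), Egr1 (2.49), Arrdc3 (2.81) and Foxn3 (2.55).

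Genes with a lower response with LE than without it were H2-Ab1 (-1.46), Csf1 (-0.88), Fdps (-1.60), Scd2 (-1.50), Dnajc3 (-1.11), Avil (-2.35), Pi16 (-2.32), Bglap2 (-3.19) and Cdsn (-2.07).

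Against the SE response the differences were Prr11 (1.41), Aspm (1.28), Bub1 (1.07), Cxcr4 (1.11), Ranbp3l (1.55) and Hspa1b (-2.50). Against the PE response they were Cxcr4 (2.77), Cxcl11 (3.12) and Pi16 (-2.46).

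Outside the comparisons, the HLA-labelled LE libraries, labelled as not given IFN-γ, had GTPase target levels of 5.66, 5.72 and 5.59 as log2(CPM + 1), above the 1.64 to 1.73 of the HLA-labelled PBS libraries.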

How the results depend on the processing

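The 4547 calls of the LE response became 4538 with RLE scaling, 4686 with no filter on low counts, 4485 in DESeq2, 4434 with only the LE and LE+IFNy libraries fitted, 4539 with the 6 groups of the study's second model, and 4130 to 4488 with 1 replicate left out. Subtracting a trend on transcript length and GC content, chosen after seeing the data, gave 3986 calls of which 44.6% were rises, and lowered the calls of LE minus PBS from 2471 to 1631. These calls kept the adjusted p from before the subtraction, and only the fold was changed. The 116 calls of LE minus SE became 235 with no filter on low counts, 190 in DESeq2 and 0 to 12 with 1 replicate left out. The 1725 calls of LE minus PE became 1130 to 1568 with 1 replicate left out. The cause of these shifts was not tested.

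Replicate numbers are shared between the groups, but the deviations of same-numbered LE and LE+IFNy libraries correlated at only 0.06, -0.05 and 0.10, and the numbers were not taken as pairs. With the replicate block, 4582 genes were called in the LE response, 2439 in the PBS response, 2530 for LE minus PBS, 162 for LE minus SE and 1771 for LE minus PE.

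Among the 124 genes tracked by name, Bglap2, whose LE response was close to 0, changed sign with RLE scaling (0.01), with no filter (0.02), in DESeq2 (0.0010), without replicate 3 (0.30) and with length and GC subtracted (0.32), and Cdsn without replicate 2 (-0.13). With 1 replicate left out, Bglap2 ran from -0.27 to 0.30 and Cdsn from -0.13 to 0.19. The HLA-labelled LE and PE libraries had the target level of treated cells, and the HLA-labelled IFNy and SE+IFNy libraries that of untreated cells. Whether sample labels or column names are exchanged was not tested. As labelled, the HLA series gave 2627 calls, 181 shared in direction and 1196 opposite. Both label series with the series as a block gave 711. In the HLA-labelled libraries the log2 fold change changed sign, as labelled, for 99 of the 124 genes. The values were Adgre1 -1.27, Ifngr1 0.15, Jak1 -0.90, Irf8 -0.73, Batf2 -0.65, Socs1 -0.02, Socs3 -1.39, Ptpn2 -0.45, Gbp2 -2.08, Gbp5 -1.04, Igtp -0.89, Gbp2b -2.15, Gbp4 -1.84, Iigp1 -0.42, Tgtp2 -0.60, Ciita -0.31, H2-Aa -0.03, H2-Eb1 -0.15, H2-Ab1 -0.0023, H2-DMb1 -0.77, Psmb9 -0.53, Tap1 -0.33, H2-Q4 -0.44, Cxcl9 -1.86, Cxcl10 -2.22 and Cxcl11 -1.91. They were further Ccl5 -2.47, Ccl7 -2.02, S1pr1 1.05, Cxcr4 -2.70, Nos2 -1.62, Acod1 -3.36, Ass1 -0.94, Cybb -0.97, Ptgs2 -1.59, Serpina3g -2.36, Serpina3f -2.08, Ly6a -0.26, Tnf -1.12, Il1rn -2.71, Il1b -4.34, Il18bp -0.85, Nfkbiz -0.79, Cd40 -0.10, Nfkbie 0.28, Tnfaip3 -1.98, Cd274 -1.55, Cd83 -1.94, Zbp1 -1.62, Rsad2 -1.94, Irf7 -2.11 and Ifi44 -0.01. They were also Casp1 -0.73, Fas -0.63, Mlkl -0.75, C1qb -1.08, C1qc -0.90, C3 -1.30, Dnase1l3 -0.15, Cd36 -1.35, Siglec1 -2.10, Tlr9 -0.21, Tlr2 0.45, Myd88 0.26, Ctsc -0.78, Ctse -0.0033, Fdps 1.18, Mvd 0.85, Scd2 1.94, Fasn 1.20, Hif1a -0.64, mt-Cytb 0.05, Rpl38 0.02, P4hb 0.54, Dnajc3 1.70, Ern1 -0.49, Slc7a11 -0.19 and Hmox1 -0.14. The last were Prr11 -0.73, Bub1 -1.22, Knl1 -0.91, Pole -1.09, Myc -2.50, Dusp1 -2.53, Egr1 -2.37, Gadd45b -2.65, Pim1 -2.15, Irf4 -2.25, Arrdc3 -1.81, Foxn3 -0.79, Avil 3.31, Pi16 3.03, Bglap2 3.94, Aspm -0.51, Hspa1b -1.77, Traf1 -1.17, Relb -0.97, Cd74 -0.07 and H2-DMa -0.82. With both label series, 28 changed sign, with values of Socs3 -0.38, Gbp2 -0.09, Gbp2b -0.07, Gbp4 -0.12, Cxcl9 -0.30, Cxcl10 -0.26, Ccl5 -0.83, Ccl7 -0.21, Acod1 -1.15, Ass1 -0.05, Serpina3g -0.52, Serpina3f -0.38, Il1rn -0.59, Il1b -2.30, Tnfaip3 -0.67, Cd83 -0.20, Zbp1 -0.05, Irf7 -0.48, Siglec1 -0.37, Dnajc3 0.28, Gadd45b -0.63, Pim1 -0.14, Avil 0.15, Pi16 0.25, Bglap2 2.69, Hspa1b -1.33, Traf1 -0.46 and Relb -0.32.

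Depth limits the genes near 0 in LE, where 1 to 3 counts leave wide intervals for the fold.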
